A study of Mus musculus with 5 samples.

Results

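The cells described here are CD4 T cells without Foxp3 UMIs that carried transcripts of 4 activation-linked genes, taken from mouse mammary tumours of progesterone-treated and placebo-treated mice. Each member had at least 1500 UMIs (unique molecular identifiers, one per captured transcript). Krt8, Krt18, Krt19 and Epcam made up under 0.3% of its UMIs. It held at least 2 UMIs of Cd3e, Cd3d and Cd3g together and at least 1 of Cd4, with none of Cd8a, Cd8b1, Foxp3 or Cd79a. It also held at least 3 UMIs of Icos, Tnfsf8, Il1rl1 and Pdcd1 together, which is called the activation sum below. The rule gave 610 members of 24022 deposited barcodes. The libraries labelled Progesterone 1, Progesterone 2 and Progesterone 3 held 90, 8 and 10 of them, and Placebo 1 and Placebo 2 held 486 and 16. The levels of the 4 genes chose the members, so these levels are a description with no test.

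The tumours grew from SSM2 cells, a mouse mammary tumour line, injected into a left mammary gland of mice aged 10 to 12 weeks. The mice carried a neck pellet of 60 mg with a release time of 60 days that held progesterone (P4) or, in the other group, placebo, and tumours were collected 28 to 62 days later. Dissociated tumours were sequenced after red cell lysis, with no sort named in the labels, in 2 batches: Progesterone 1 and Placebo 1 in batch 1, and Progesterone 2, Progesterone 3 and Placebo 2 in batch 2. The labels give neither the strain of the hosts nor a statement that each library is its own animal. Progesterone 2 and Progesterone 3 were deposited under 1 identifier with the endings L and R and may come from 1 mouse. The p-values below therefore cover library-to-library spread, which may be technical. All groups carried SSM2 tumours and a pellet, and no library came from a gland without tumour.

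CD4 helper T cells recognise peptides on MHC class II molecules and steer other immune cells through surface ligands and cytokines. A naive CD4 T cell expresses the homing gene Ccr7 and the transcription factors Lef1, Satb1 and Tcf7. After antigen it gains Cd44 and costimulatory receptors and can turn into a Th1 cell (Tbx21, Ifng), a Th2 cell (Gata3, Il4, Il5, Il13) or another helper type, while regulatory T cells are defined by Foxp3. Icos on chromosome 1 (60977927 to 61000320, GRCm38) encodes a costimulatory receptor of the CD28 family. Tnfsf8 on chromosome 4 (63831308 to 63861347) encodes the CD30 ligand. Il1rl1 on chromosome 1 (40429570 to 40465415) encodes ST2, the receptor for IL-33, and Pdcd1 on chromosome 1 (94038305 to 94052553) encodes the inhibitory receptor PD-1. Cd40lg on chromosome X (57212143 to 57224042) encodes CD40 ligand, through which helper T cells act on B cells and myeloid cells, and it took no part in the rule. All 5 genes are protein-coding.

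Placebo 1 stood apart from the other libraries. A Cd3 UMI was found in 525 of the 2241 Progesterone 1 barcodes and in 4300 of the 4940 Placebo 1 barcodes. The counts in batch 2 were 55 of 5514 barcodes (Progesterone 2), 85 of 5470 (Progesterone 3) and 169 of 5857 (Placebo 2). The libraries held 23409215 to 204786073 UMIs in all, and the members' median depth was 9379 UMIs in Progesterone 1 and 9858.5 in Placebo 1, against 5800, 5880 and 6053.5 in Progesterone 2, Progesterone 3 and Placebo 2. Any pair of libraries shared 2 to 12 barcode sequences. Krt8, a keratin of the tumour epithelium, stood at 866 and 56.6 CPM (UMIs scaled to a common total) over all barcodes of Progesterone 1 and Placebo 1, and at 4184, 4489 and 7252 CPM in Progesterone 2, Progesterone 3 and Placebo 2. Macrophage-like barcodes, chosen for having no Cd3 UMI, were used to see how often the other T cell genes appear outside T cells. Icos was found in at most 0.952% of them in a library and Cd40lg in at most 0.635%, at library medians of 12599 to 18545 UMIs. Tnfsf8 was found in 2 of the 15 such barcodes of Placebo 1 (13.3%), too few to set its background, and in 2.49% to 8.23% of those in the other libraries. Il1rl1 was found in 0.952% of them in Progesterone 1 but in 10.4% in Placebo 2.

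Among the 4 selecting genes, Icos was the most widely detected in every library. It was found in 79 of 90 members of Progesterone 1 and 450 of 486 members of Placebo 1. Tnfsf8 was found in 56 of 90 members of Progesterone 1 and 233 of 486 members of Placebo 1. The other 2 genes differed more between these libraries. Il1rl1 was found in 24 members of Progesterone 1 (26.7%) and 9 members of Placebo 1 (1.85%), and Pdcd1 in 27 (30%) and 39 (8.02%). In batch 2, Il1rl1 was found in 1 of 8, 2 of 10 and 2 of 16 members of Progesterone 2, Progesterone 3 and Placebo 2, and Pdcd1 in 5, 6 and 9. The 2 Placebo 2 members with Il1rl1 held 20 of its UMIs. Of the activation UMIs in Progesterone 1 members, Tnfsf8 made up 42.0%, Icos 32.4%, Il1rl1 19.7% and Pdcd1 5.97%. In Placebo 1 members Icos made up 59.8%, Tnfsf8 35.4%, Il1rl1 2.74% and Pdcd1 2.08%. Icos and Tnfsf8 also made up most activation UMIs in the batch 2 libraries. Tnfsf8 was found there in 5 of 8, 5 of 10 and 7 of 16 members of Progesterone 2, Progesterone 3 and Placebo 2, no more often than Pdcd1. The cells are called Icos/Tnfsf8 CD4 T cells below after these UMI shares, although many members held no Tnfsf8 UMI.

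The label "activated" held for part of them. Cd44, a receptor for hyaluronan that rises when T cells meet antigen, was found in 74 of 90 members of Progesterone 1 and 203 of 486 members of Placebo 1. In batch 2 it was found in 8 of 8 and 10 of 10 members of Progesterone 2 and Progesterone 3 and in 14 of 16 members of Placebo 2. Placebo 1 members carried naive transcripts: Ccr7 was found in 36 of 90 Progesterone 1 members and 411 of 486 Placebo 1 members. Lef1 was found in 52 and 435 members of these libraries, and Satb1 in 54 and 456. With every cell thinned to 1500 UMIs, Cd44 was found in 57.8% and 23.3% of Progesterone 1 and Placebo 1 members, Ccr7 in 11.1% and 45.5%, and Lef1 in 33.3% and 78.0%. Lef1 stood at 734 and 2214 CPM in the members of the same 2 libraries, against 1.45 and 12.0 CPM in their macrophage-like barcodes.

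Within both libraries of batch 1, Cd44 was more frequent and Lef1 and Satb1 levels were lower where the activation sum was higher. Ccr7 was less frequent in Placebo 1 alone. At a sum of 3 to 4, Cd44 was found in 61.5% of 26 Progesterone 1 members and 22.0% of 227 Placebo 1 members. At a sum of 5 to 9 the shares were 72.7% of 22 and 45.8% of 166 members, and at 10 or more they were 100% of 42 and 82.8% of 93. Ccr7 ran the other way in Placebo 1, from 93.4% through 83.7% to 64.5%, while in Progesterone 1 it stood at 38.5%, 40.9% and 40.5%. Other naive genes did fall in Progesterone 1. There Lef1 stood at 1412, 1276 and 205 CPM and Satb1 at 1924, 963 and 597 CPM. In Placebo 1 Lef1 stood at 2924, 2181 and 818 CPM and Satb1 at 4280, 3769 and 1863 CPM. The shares of Progesterone 1 members with Satb1 or Tcf7 did not fall steadily. Cells with a sum of 10 or more also had the highest median depth in both libraries, with median depths of 9175.5, 8841.5 and 11708.5 UMIs in the Progesterone 1 bins and 9681, 9905 and 10859 in the Placebo 1 bins. Thinned to 1500 UMIs, Cd44 was found in 34.6%, 45.5% and 78.6% of Progesterone 1 members and 8.37%, 25.9% and 54.8% of Placebo 1 members. The median activation sum was 9 in Progesterone 1 and 5 in Placebo 1. The cut itself fell in a smooth range in Placebo 1. Cd44 was found in 16.25% of the 240 cells with a sum of 2, just outside the rule, and in 20.7% of the 150 cells with a sum of 3, just inside it. In Progesterone 1 these shares were 58.8% of 17 cells and 60.0% of 15 cells.

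**Figure D1:**
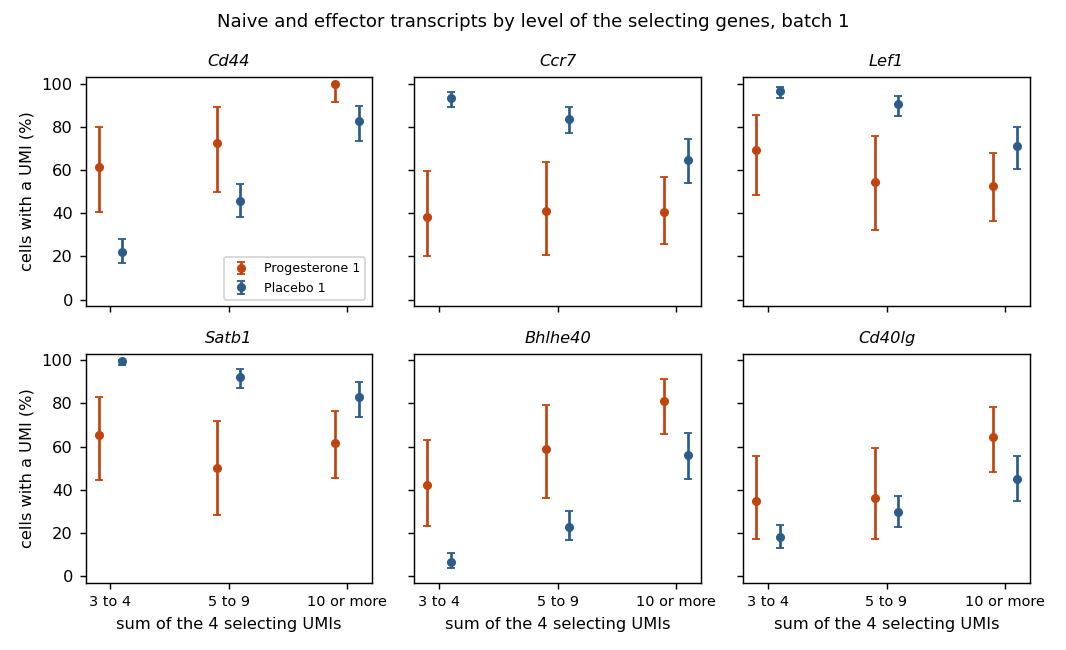
Share of Icos/Tnfsf8 CD4 T cells with a UMI (%, y axis) of 6 genes by the sum of Icos, Tnfsf8, Il1rl1 and Pdcd1 UMIs (x axis) in Progesterone 1 and Placebo 1, with exact 95% intervals. Cd44 stood at 61.5%, 72.7% and 100% in Progesterone 1 and at 22.0%, 45.8% and 82.8% in Placebo 1.

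Icos/Tnfsf8 cells made up a larger share of CD4 T cells in Progesterone 1 than in Placebo 1. CD4 T cells here are cells that passed the rule up to the Cd8a and Cd8b1 step, with or without Foxp3. Progesterone 1 had 90 members among 180 such cells (50%; exact 95% Clopper-Pearson interval 42.5% to 57.5%) and Placebo 1 had 486 among 2019 (24.1%; 22.2% to 26.0%), a difference of 25.9 percentage points. In batch 2, Progesterone 2 had 8 among 16 (50%; 24.7% to 75.3%), Progesterone 3 had 10 among 22 (45.5%; 24.4% to 67.8%) and Placebo 2 had 16 among 47 (34.0%; 20.9% to 49.3%). The intervals, which cover counting error only, overlap between treatments in batch 2. With every cell thinned to 1500 UMIs before the rule and an activation sum of at least 1, members were 50% of 26 cells in Progesterone 1 and 26.3% of 285 in Placebo 1. The same setting gave Progesterone 2 a share of 40% (5 CD4 T cells in all; 5.27% to 85.3%). Progesterone 3 had one of 71.4% (7 cells; 29.0% to 96.3%) and Placebo 2 one of 71.4% (14 cells; 41.9% to 91.6%). Neither progesterone share was above Placebo 2 in this setting, and so few cells cannot settle the direction in batch 2. Among all T cells, members were 22.8% in Progesterone 1 and 11.9% in Placebo 1. With 1 library per treatment in batch 1 there is no test of the difference, and treatment cannot be told apart from anything else in which the 2 libraries differ, such as the Cd3 and Krt8 levels given above. What tissue besides tumour Placebo 1 may hold was not tested, and this bears on every value from it below.

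**Figure D2:**
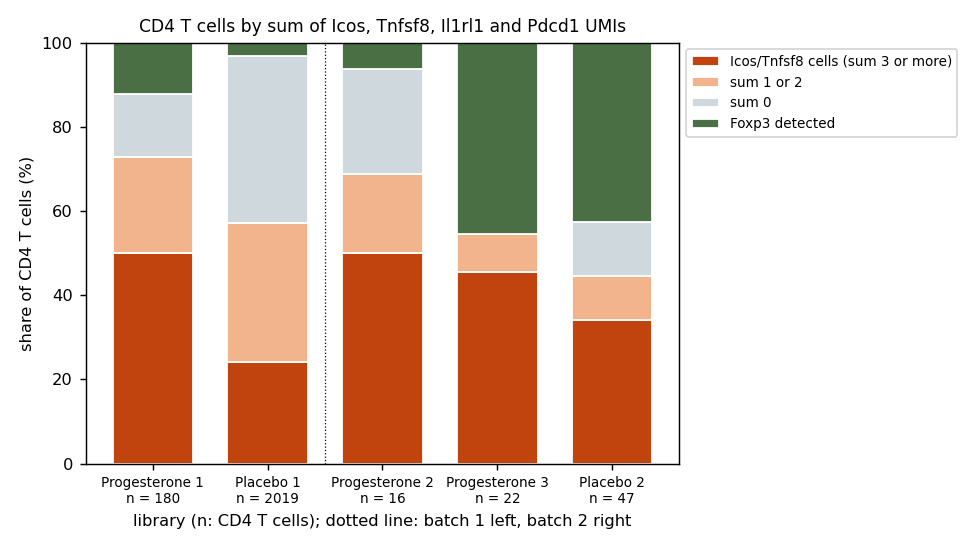
CD4 T cells of each library (x axis) split into Icos/Tnfsf8 cells (activation sum of 3 or more), cells with a sum of 1 or 2, cells with a sum of 0 and cells with Foxp3 UMIs, as a share of CD4 T cells (%, y axis). Icos/Tnfsf8 cells made up 50% in Progesterone 1 and 24.1% in Placebo 1, and cells with a sum of 0 were the largest class in Placebo 1 (798 of 2019).

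In batch 1, effector genes were higher and naive genes lower in the members of Progesterone 1 than in those of Placebo 1. UMIs were summed over the members of a library and scaled to CPM, and a gene was called where the CPM ratio was at least 2-fold and its exact 95% counting interval left out 1. This compares 2 libraries, not 2 treatments, and no p-value is given. Of 7626 genes with at least 50 UMIs, 893 were called (11.7%), 500 higher in Progesterone 1 (6.56%) and 393 lower (5.15%). Scaling by TMM factors moved the median of all genes from -0.00 to -0.13 on the log2 scale and gave 397 higher and 534 lower genes, so changes near 2-fold depend on the scaling. The lists below were drawn up with earlier results of these data known, and list members are given by counts beside these shares.

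Naive and central memory genes were lower. Of 13 genes tested of 14 listed, 7 were called lower and 0 higher, with a median log2 ratio of -1.17 (all genes -0.00). Ccr7, the lymph node homing receptor, had 143 CPM in Progesterone 1 members and 470 CPM in Placebo 1 members, a ratio of 0.304 (0.254 to 0.361). Lef1 had 734 and 2214 CPM (ratio 0.331), and Satb1, a chromatin organiser of resting T cells, had 1019.8 and 3586 CPM (ratio 0.284). Foxp1 and Bach2, which hold T cells in a resting state, had ratios of 0.395 and 0.421. Tcf7 was at 478 CPM in Progesterone 1 and 494 CPM in Placebo 1 and was not called, and neither were Il7r, Klf2, S1pr1 and Dapl1. In batch 2 members, Lef1 stood at 591, 105 and 108.8 CPM in Progesterone 2, Progesterone 3 and Placebo 2, and Satb1 at 129, 275 and 287 CPM. All 3 libraries of batch 2 lay below Placebo 1 for both genes.

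Effector memory and residency genes were higher, 11 of 16 tested genes with none lower (median 1.63). Cd44 had 951 CPM in Progesterone 1 and 318 CPM in Placebo 1, a ratio of 2.99 (2.76 to 3.25). Cxcr6, a chemokine receptor of T cells that reside in tissue, had 114 and 10.0 CPM, a ratio of 11.4 (8.10 to 16.1). Prdm1, the gene of the Blimp-1 repressor, had a ratio of 4.64, and S100a6, Anxa2, Rgs1, Itgb1, Lgals1 and Ahnak lay between 3.21 and 3.77. In batch 2 Cd44 stood at 591, 957 and 683 CPM in Progesterone 2, Progesterone 3 and Placebo 2, where the placebo value lies between the progesterone values.

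Genes that the T cell receptor induces were higher in 7 of 13 tested, with none lower (median 1.10). Bhlhe40, a transcription factor that T cells need for cytokine output, had 461 CPM in Progesterone 1 and 78.9 CPM in Placebo 1, a ratio of 5.85 (5.10 to 6.70). Irf4, which scales with receptor signal strength, had 94.3 and 22.0 CPM, and Nr4a1 had 299.5 and 90.1 CPM. Il2, the T cell growth factor, had 27 UMIs in 13 members of Progesterone 1 and 36 UMIs in 18 members of Placebo 1. Cd40lg had 129 UMIs in 44 of 90 members of Progesterone 1 (134 CPM) and 276 UMIs in 132 of 486 members of Placebo 1 (53.2 CPM), a ratio of 2.51 (2.02 to 3.11). At an activation sum of 10 or more, Cd40lg was found in 64.3% of Progesterone 1 members and 45.2% of Placebo 1 members, whose intervals overlap. In batch 2, Cd40lg was found in 3 of 8, 1 of 10 and 2 of 16 members of Progesterone 2, Progesterone 3 and Placebo 2.

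Th1 genes and the few Th2 genes tested were higher. Of 9 Th1 genes tested, 6 were called higher (median 1.97). Ifng had 52 UMIs in 17 members of Progesterone 1 and 40 UMIs in 10 members of Placebo 1, a CPM ratio of 6.99 (4.54 to 10.8). Tbx21, the Th1 master factor, had a ratio of 6.81 (93.3 and 13.7 CPM) and the chemokine Ccl5 a ratio of 6.11 (94.3 and 15.4 CPM). Cxcr3, the Th1 chemokine receptor, had a ratio of 2.10 and, with an activation sum of at least 5, a log2 ratio of -0.47. All 3 Th2 genes that reached 50 UMIs in the 2 libraries together, of 14 listed, were higher. This count is no evidence on the list. A gene low in Placebo 1 passes the filter only where Progesterone 1 is high, as Il13 did. Gata3 had 433 CPM in Progesterone 1 and 123 CPM in Placebo 1 (ratio 3.52; 3.10 to 3.99), and Ccr4, a Th2 and skin-homing receptor, had 35.2 and 4.82 CPM. Il13 had 56 UMIs in 2 members of Progesterone 1 and 3 UMIs in 2 members of Placebo 1, and 1 cell held 55 of the 56. Without the highest cell of each library Il13 was at 1 UMI in each.

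Receptors and the remaining helper lists were mixed. Of 14 costimulatory and TNF family genes, 4 were higher and 2 lower (median 0.75): besides Cd40lg, Cd226 had a log2 ratio of 2.27, the lymphotoxin gene Ltb 1.63 and the TNF receptor gene Tnfrsf1b 1.05, while Cd27 (-1.14) and Tnfrsf9, the gene of 4-1BB (-1.13), were lower. Of 13 inhibitory genes, 4 were higher and none lower, among them Entpd1 (2.14) and Nt5e (2.02), which encode the ectoenzymes CD39 and CD73, and Lag3 (1.57). Of 5 Th17 genes tested of 11 listed, 4 were higher, with Ahr at 2.34 and Rora at 1.99. Of 8 follicular helper genes tested of 14 listed, 2 were higher, P2rx7 and Maf (1.03). Of 10 genes tied to regulatory T cells, 5 were higher and 1 lower, with Nrp1 at 2.94, Il2ra at 1.68 and Ikzf2 at 1.24. Of 5 cytotoxic genes tested of 14 listed, 3 were higher, with Nkg7 at 2.96. The limit of the UMI filter given for the Th2 genes holds for the Th17 and cytotoxic counts too. These counts are therefore no evidence on the lists. Of 10 core genes of T cell receptor signalling 1 was higher, Lcp2 (1.11).

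Stress, glycolysis and hypoxia genes were higher in part, and few interferon-stimulated and steroid target genes were called. Of 18 dissociation and stress genes tested, 8 were higher (median 0.83). Hspa1a, a heat shock chaperone, had 232 CPM in Progesterone 1 and 15.8 CPM in Placebo 1, and Fos had 875 and 409 CPM. The lists overlap, and Nr4a1 counts both among these 8 and among the receptor-induced genes above. Of 13 glycolysis and hypoxia genes, 5 were higher, among them Hif1a (ratio 2.40) and Aldoa (2.73). Of 17 interferon-stimulated genes, 2 were higher, and of 13 steroid receptor target genes 1 was higher (Ddit4) and 1 lower (Zbtb16). The glucocorticoid targets Tsc22d3 and Fkbp5 had 186 and 63.2 CPM in Progesterone 1 against 209 and 57.5 CPM in Placebo 1. Pgr, the progesterone receptor gene, had 1 UMI in Progesterone 1 members and 1 in Placebo 1 members, which is below the floor of 3 counts in both, so no ratio is given.

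Markers of other cells moved in the same direction. The 12 macrophage and monocyte markers together were at 153 CPM in Progesterone 1 members and 20.8 CPM in Placebo 1 members, with 2 or more such UMIs in 40 of 90 and 15 of 486 cells. The 11 dendritic cell markers were at 178 and 23.7 CPM, and the 6 neutrophil markers at 83.9 and 9.26 CPM. Apoe, a lipid carrier of macrophages, had 65 UMIs in 47 Progesterone 1 members and at most 4 in a cell, and stood at 2442 CPM over all barcodes of Progesterone 1 and 21.3 CPM over those of Placebo 1. H2-Ab1, S100a9, Spp1 and Mt1 were also higher in the members and over all barcodes of Progesterone 1. The part of these transcripts in the called genes was not tested. With cells of 2 or more B cell or macrophage marker UMIs left out, 45 of the 90 Progesterone 1 members and 468 of the 486 Placebo 1 members remained, and 852 genes were called, 490 higher and 362 lower. Of the genes followed singly, 53 stayed within their counting interval and 29 did not. Fos (log2 ratio 0.60), Lcp2 (0.84), Cd69 (0.85), Fosb (0.77), P2rx7 (0.77), Tnfrsf9 (-0.69) and Stmn1 (-0.17) fell under 2-fold. Mvk (-0.61), Cap2 (-1.20) and Abcg2 (-1.20) had no UMI left in Progesterone 1. Their values use the floor of 3 counts and are upper limits, not smaller differences. Ccl5 (4.32), Tbx21 (3.53), Nkg7 (3.57) and Il2ra (2.32) moved further up.

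Several of the largest ratios came from few cells. Cachd1 had 61 UMIs in Progesterone 1 members, 53 of them in 1 cell, and 2 in Placebo 1 members. Calca, the calcitonin and CGRP gene, stood at 81.8 and 0.903 CPM over all barcodes of Progesterone 1 and Placebo 1, and had 159 UMIs in 9 members of Progesterone 1, 120 of them in 1 cell, and 9 UMIs in 3 members of Placebo 1. Fgl2 was more evenly spread, with 95 UMIs in 16 members and 11 in 3 members (ratio 46.4; 24.8 to 96.1). Epha3 had 59 UMIs in 10 members and 16 in 8, Plac8 had 49 in 15 and 9 in 7, and Hilpda had 80 in 23 and 27 in 25. Cachd1, Calca, Fgl2, Epha3, Plac8 and Hilpda passed the UMI filter only with their Progesterone 1 UMIs, so these ratios are a description. The 12 smallest ratios rest on few UMIs in Progesterone 1: 3 for Pak1, 2 for Frat1 and 1 for each of the others. Klhl21 had 1 UMI in Progesterone 1 and 97 in Placebo 1 (ratio 0.0554; 0.00139 to 0.316). Cap2, Abcg2, Robo1, Tusc2, Mvk, Mgmt, Zbtb16, Wdr53, Mettl1 and Frat1 had ratios of 0.0655 to 0.116. Robo1 and Zbtb16 came from only 8 and 6 Placebo 1 cells.

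**Figure D3:**
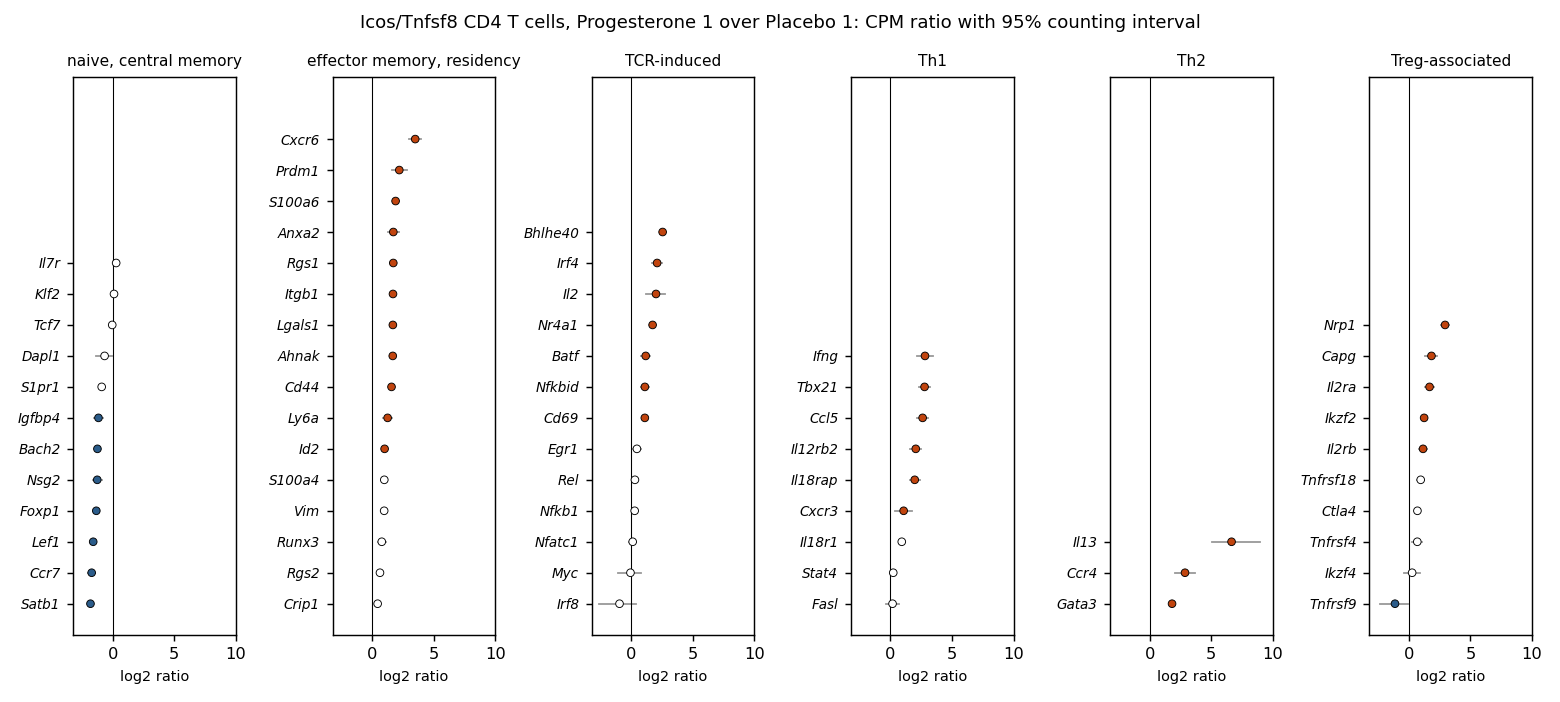
Log2 CPM ratio of Progesterone 1 over Placebo 1 in Icos/Tnfsf8 CD4 T cells (x axis) for tested genes of 6 lists (y axis), with 95% counting intervals as grey lines. Filled red and blue points were called higher and lower in Progesterone 1. Satb1 (-1.81) to Igfbp4 (-1.17) were called lower among naive genes, and Cxcr6 (3.51) led the effector memory list.

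The edgeR quasi-likelihood fit over both batches called no gene between treatments. It used the 4 libraries with at least 10 members (Progesterone 1, Progesterone 3, Placebo 1 and Placebo 2), with batch as a term, which leaves 1 residual degree of freedom. Of 6325 genes, 0 were called at an adjusted p under 0.05 (0.0%), and 324 had an unadjusted p under 0.05. The 324 are near the number that a threshold of 0.05 passes when no gene differs. The lowest adjusted p, 0.122, was shared by Calca, H2-Ab1, H2-Eb1, Hspa1b, Cx3cr1 and Calr4. The DESeq2 Wald test called 7 genes. H2-Ab1 rested in batch 2 on 1 Progesterone 3 cell that held 137 of its 141 UMIs. Bhlhe40, Cd44 and Gata3, which were called in batch 1, did not pass here: Bhlhe40 had a log2 ratio of 1.93 (SE 0.40, adjusted p = 0.505), Cd44 1.05 (SE 0.35, adjusted p = 0.756) and Gata3 1.23 (SE 0.42, adjusted p = 0.758). Bhlhe40 had 461 and 892 CPM in Progesterone 1 and Progesterone 3, against 78.9 and 376 CPM in Placebo 1 and Placebo 2, so it was higher in the progesterone library of each pair. Progesterone 2, left out of the fit for its 8 members, had 240 CPM of Bhlhe40, below Placebo 2. Lef1 had 734 and 105 CPM in Progesterone 1 and Progesterone 3 and 2214 and 108.8 CPM in Placebo 1 and Placebo 2, so its difference lay in batch 1.

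Against CD4 T cells of the same libraries with an activation sum of 0, members had more effector and activation transcripts. The cells were chosen on their own UMIs, so the comparison shows which genes went with the 4 selecting ones. The fit used Progesterone 1 (90 and 27 cells) and Placebo 1 (486 and 798 cells) with the library as a block and 1 residual degree of freedom, so its p-values lean on the spread shared across genes. Of 9539 genes, 308 were called (3.23%), 256 higher in members (2.68%) and 52 lower (0.545%). Without the block 1 gene was called, the DESeq2 Wald test called 86, and leaving out cells with 2 or more B cell or macrophage marker UMIs gave 190. The median member was deeper than the median comparison cell, 9379 against 7740 UMIs in Progesterone 1 and 9858.5 against 8106.5 in Placebo 1. The part of depth in the calls was not tested, and the selecting genes were left out of the test.

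Effector memory and residency genes rose in 12 of 17 tested, with none lower (median 1.59, all genes 0.02). S100a4, a calcium-binding protein of memory T cells, had 235 and 118 CPM in Progesterone 1 and Placebo 1 members, against 27.2 and 1.03 CPM in the comparison cells (log2 ratio 5.28, SE 0.38, adjusted p = 1.68e-35). Cd44 had 951 and 318 CPM in members and 104.2 and 26.2 CPM in comparison cells (3.36, SE 0.25, adjusted p = 1.68e-35). S100a6 (3.91), Cxcr6 (3.29), Itgb1 (2.68) and Ahnak (2.11) rose as well. Naive genes fell in 4 of 14: Lef1 (-1.28), Igfbp4 (-0.98), Bach2 (-0.81) and Foxp1 (-0.79), while Ccr7 and Satb1 did not pass. Placebo 1 members still held 2214 CPM of Lef1 against 3139 CPM in its comparison cells.

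Costimulatory and TNF family genes rose in 8 of 15 tested, with none lower. Cd40lg rose (log2 ratio 0.94, SE 0.29, adjusted p = 0.0426), with 134 and 53.2 CPM in Progesterone 1 and Placebo 1 members against 63.4 and 26.7 CPM in comparison cells. Tnfsf11, the gene of RANK ligand, rose by 3.72 and Tnfrsf4, the gene of OX40, by 2.66. Inhibitory genes, not all of them receptors, rose in 5 of 14, among them Lag3 (3.80), Cd200 (3.78) and Ctla4 (2.83, SE 0.27). Helper genes of several lineages rose, with 6 of 9 Th1 genes, 2 of 4 Th2 genes and 6 of 6 Th17 genes called. Ifng (2.85), Tbx21 (2.09), Ccr4 (2.93), Gata3 (0.83), Il23r (3.45) and Rora (2.29) were among them. Of 21 interferon-stimulated genes and 7 macrophage markers, edgeR called 0. Among the 12 named genes with the largest gains, Nrp1 (4.23), Gcnt1 (4.45), Fbn2 (3.83), Gpm6b (3.80), Nt5e (3.77), Cobll1 (3.76) and Pard3 (3.76) joined those above. Areg (3.74), an EGF family ligand that ST2-bearing T cells can secrete, had 96.4 and 10.6 CPM in Progesterone 1 and Placebo 1 members, and 1 Progesterone 1 cell held 82 of its UMIs. The other genes with the largest falls were Rras2 (-1.22), Irs2 (-1.15), Nup210l (-1.05), Tgfbr3 (-0.97), Ifngr2 (-0.97), Atp8b4, Baz2b, Patj, Ugcg and Mgat4a (-0.95 to -0.92).

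Genes tied to regulatory T cells also rose in members, 10 of 12 tested. Ikzf2, the gene of Helios, a factor of most thymic regulatory T cells, had 332 and 141 CPM in Progesterone 1 and Placebo 1 members and 0 and 14.3 CPM in comparison cells (log2 ratio 3.57, SE 0.30, adjusted p = 2.68e-27). Il2ra, the high-affinity IL-2 receptor chain, rose by 2.38. Ikzf2 was not particular to CD4 T cells with Foxp3, since members had less of it than CD8 T cells with an activation sum of 3 or more. Ikzf2 at 5 or more UMIs was found in 17 of 90, 3 of 8 and 5 of 10 members of Progesterone 1, Progesterone 2 and Progesterone 3, and in 31 of 486 and 10 of 16 members of Placebo 1 and Placebo 2. Among Foxp3+ cells with an activation sum of 3 or more, it was found in 18 of 18 and 10 of 10 in Progesterone 1 and Progesterone 3 and in 25 of 35 and 18 of 19 in Placebo 1 and Placebo 2. Of those Foxp3+ cells, 16.7% in Progesterone 1, 40.0% in Progesterone 3, 40.0% in Placebo 1 and 47.4% in Placebo 2 carried exactly 1 Foxp3 UMI. A regulatory T cell whose Foxp3 transcripts were missed would fall among the members, and its number was not tested.

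Against Foxp3+ CD4 T cells with an activation sum of 3 or more, few genes passed the adjusted threshold. The fit used 4 libraries with at least 10 cells of each kind: Progesterone 1 (90 and 18 cells), Progesterone 3 (10 and 10), Placebo 1 (486 and 35) and Placebo 2 (16 and 19). With the library as a block, 20 of 3664 genes were called (0.546%), 5 higher in members (0.136%) and 15 lower (0.409%). In this edgeR fit 464 genes had an unadjusted p under 0.05. With 10 to 35 Foxp3+ cells per library, the low number of calls does not show that the 2 populations are alike. Without the block edgeR called 0 (215 at an unadjusted p under 0.05). The DESeq2 Wald test called 89, the 20 included. Leaving out cells with 2 or more B cell or macrophage marker UMIs left 3 libraries and 0 genes (369 at an unadjusted p under 0.05). Leaving out Placebo 2 gave 96 genes, leaving out Progesterone 3 gave 37, and leaving out Placebo 1, the library that stood apart, gave 28 (21 higher, 7 lower), of which 9 were among the 20.

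Sidt1 had 248.7 and 78.7 CPM in Progesterone 1 and Progesterone 3 members and 330 and 188 CPM in Placebo 1 and Placebo 2 members. In Foxp3+ cells it had 16.6 and 0 CPM and 66.6 and 12.4 CPM in the same order (log2 ratio 3.08, SE 0.41, adjusted p = 0.0108). Each member value exceeded the Foxp3+ value of its own library. Pde3b, a cyclic nucleotide phosphodiesterase (2.11), Actn1, an actin cross-linker (1.75), and Arap2 (1.42) were also among the genes that rose. Itgae, the gene of the CD103 integrin that binds E-cadherin, had 29.0 and 52.5 CPM in Progesterone 1 and Progesterone 3 members and 2.31 and 79.2 CPM in Placebo 1 and Placebo 2 members. In Foxp3+ cells Itgae had 482 and 287 CPM and 56.8 and 174 CPM in that order (-3.02, SE 0.48, adjusted p = 0.0411). Hopx (-2.70, SE 0.32, adjusted p = 0.00828), Cmtm7 (-2.20), Rgs16 (-2.18), Myo3b (-2.09), Cerk (-1.97), Fam126a (-1.72), Ptprj (-1.71), Plac8 (-1.68), Gbp7 (-1.59) and Vim (-1.35) fell too, as did Arl5a (-1.52) and Gm2a (-1.57), named after their values were seen.

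The replication genes Top2a (-2.08, SE 0.35, adjusted p = 0.0345) and Mcm6 (-2.07, SE 0.38, adjusted p = 0.0468) fell in members, 2 of 5 tested cell cycle genes. Cells with at least 3 UMIs of cell cycle genes after thinning were 1 of 90 members and 1 of 18 Foxp3+ cells in Progesterone 1, 0 of 10 and 2 of 10 in Progesterone 3, 7 of 486 and 3 of 35 in Placebo 1 and 0 of 16 and 3 of 19 in Placebo 2. Of the 11 regulatory T cell genes tested beside Foxp3, 0 were called, with a median of -1.45 (all genes -0.01). Il2ra had a log2 ratio of -2.60 (SE 0.53, adjusted p = 0.0838) and Ikzf2 of -2.67 (SE 0.92, adjusted p = 0.327). Of 10 naive genes 0 were called, with a median of 1.26, and Tcf7 had a log2 ratio of 2.68 (SE 0.53, adjusted p = 0.0698).

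Against activated CD8 T cells, chosen by the same activation sum, members had lower levels of cytotoxic genes and a higher level of Cd40lg. The fit used Progesterone 1 (90 and 27 cells) and Placebo 1 (486 and 119 cells) with the library as a block and 1 residual degree of freedom. Of 7895 genes, 295 were called (3.74%), 151 higher in members (1.91%) and 144 lower (1.82%). Without the block edgeR called 0 (272 at an unadjusted p under 0.05), the DESeq2 Wald test called 85, and an activation sum of at least 5 left 1. Members were shallower than the CD8 T cells, with medians of 9379 against 14591 UMIs in Progesterone 1 and 9858.5 against 11264 in Placebo 1. Of 10 cytotoxic genes, 8 fell and none rose (median -2.14). Gzmb, the granzyme B gene, had 5.18 and 1.16 CPM in Progesterone 1 and Placebo 1 members, against 37.4 and 129 CPM in CD8 T cells (-5.01, SE 0.62, adjusted p = 0.000566). Ccl5 had 94.3 and 15.4 CPM in members and 1264 and 148 CPM in CD8 T cells (-3.46, SE 0.19, adjusted p = 5.47e-25). Klrd1 (-4.40), Nkg7 (-3.26), Cst7 (-2.21), Eomes (-2.06), Prf1 (-1.99) and Ctsw (-1.97) fell too. The NK receptor gene Klrc1 (-4.35), the chemokine Xcl1 (-3.53), Runx3, which sets the CD8 fate (-2.12), and Itgae (-3.17) were lower as well, as were Dscam, Bend4, Osbpl6, Slc24a3 and Ly6c2 (-4.24 to -3.76).

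Cd40lg had 134 and 53.2 CPM in Progesterone 1 and Placebo 1 members and 17.5 and 8.47 CPM in CD8 T cells (log2 ratio 2.67, SE 0.35, adjusted p = 1.7e-08). Tnfsf11 (2.23), Tnfrsf4 (1.92), Slamf1 (0.87) and Cd2 (0.60) also rose, 5 of 16 costimulatory genes, while Cd226 fell (-0.98). Of 8 follicular helper genes, Izumo1r (2.53), Maf (1.90) and Il6ra (1.08) rose. Of 9 Th1 genes, Il18r1 rose and Ccl5, Stat4 and Tbx21 fell, where Tbx21 fell by 1.20 on the log2 scale. Of 2 Th2 genes Gata3 rose (1.25), and of 6 Th17 genes Rora rose. Of 10 genes tied to regulatory T cells, Tnfrsf4 and Nrp1 rose and Ikzf2 and Il2rb fell. Among the largest gains, St8sia6 (3.52, SE 0.27) was the most abundant, with 123 and 642 CPM in members and 24.9 and 42.3 CPM in CD8 T cells. Khdrbs3 (5.31), Kcnc2 (3.81), Pde5a (3.72), Stau2 (3.58), Angptl2 (3.35), Gpm6b (3.18), Areg (3.17), Ccdc141 (3.03), Csgalnact1 (2.88) and Ankrd6 (2.80) completed them.

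**Figure D4:**
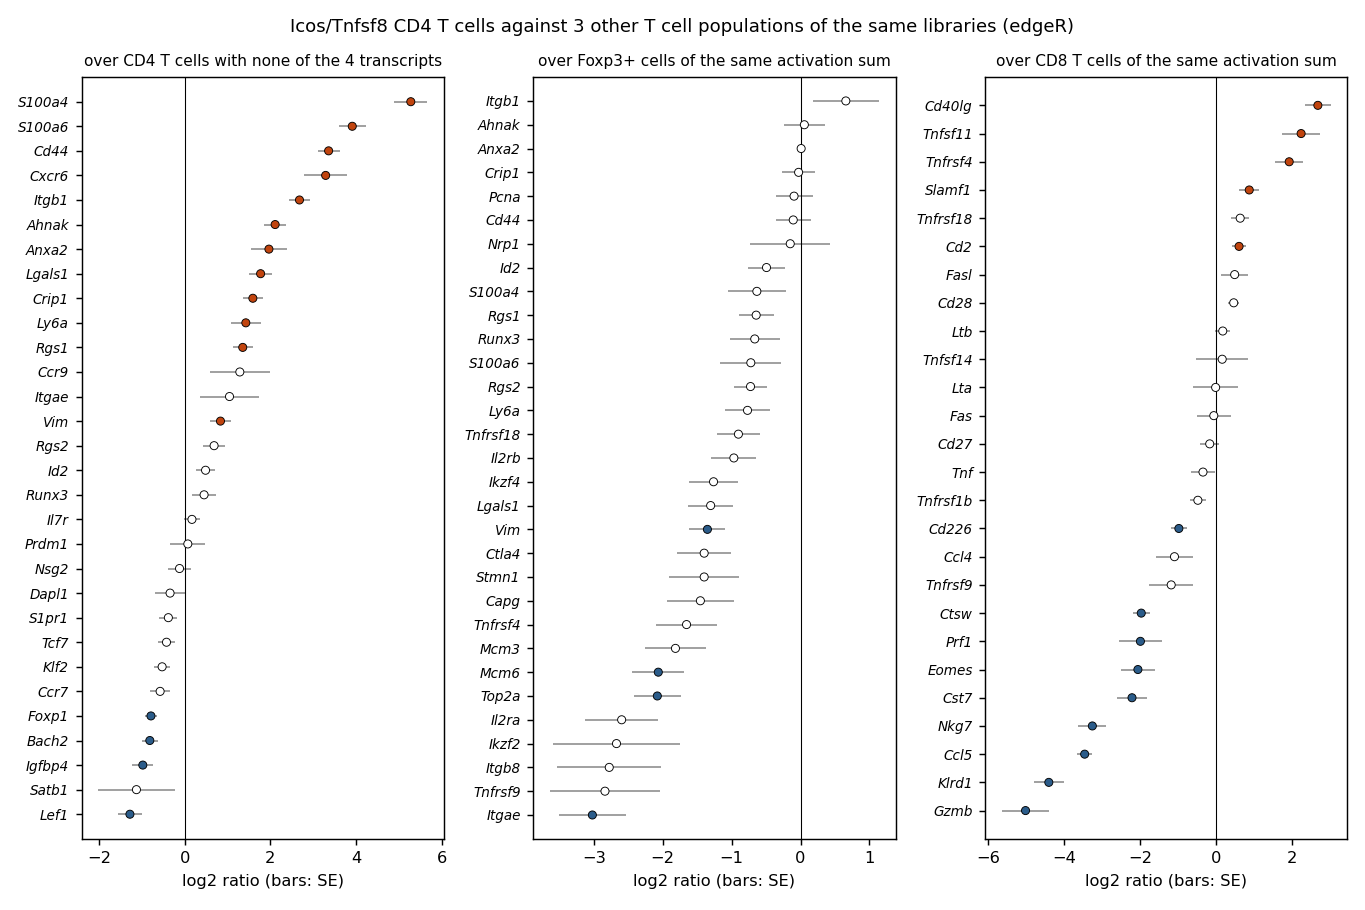
Log2 ratio of Icos/Tnfsf8 CD4 T cells (x axis, bars are SE) over CD4 T cells with an activation sum of 0, Foxp3+ CD4 T cells and CD8 T cells with a sum of 3 or more, for tested genes of chosen lists (y axis). Filled points passed an adjusted p of 0.05, red higher and blue lower in the Icos/Tnfsf8 cells. The bar of Anxa2 in the middle panel is left out, since its ratio is near 0 and no SE can be had from the test. S100a4 (5.28) and Gzmb (-5.01) mark the ends.

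Members of Progesterone 1 with Il1rl1 and with Pdcd1 differed in other genes. Il1rl1 without Pdcd1 was found in 15 members, Pdcd1 without Il1rl1 in 18, both in 9 and neither in 48. No other library had 10 cells of each kind. UMIs were summed over each kind and set against each other by the 2-fold rule, which is a description of cells from 1 library. Of 1338 genes with at least 50 UMIs, 204 were called (15.2%), 77 higher in the Il1rl1 cells (5.75%) and 127 lower (9.49%). Cd44 was found in 15 of 15 Il1rl1 cells and 18 of 18 Pdcd1 cells.

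Gata3 was higher in the Il1rl1 cells and was the 1 gene tested of 14 listed Th2 genes. It was found in 15 of 15 of them and 13 of 18 Pdcd1 cells, at 1100 and 375 CPM (ratio 2.93; 2.21 to 3.92). Il4 was found in 3 of 15 and Il5 in 3 of 15 Il1rl1 cells, and in 0 of 18 Pdcd1 cells, which allows a share of cells with a UMI of up to 16.7%. Such limits hold for cells with a UMI, not for cells that express the gene. In the rest of Progesterone 1, Il4 was found in 2 of the 9 cells with both receptors and in 0 of the 48 with neither, which allows up to 6.25% with a UMI. Il4 and Il5 had no UMI in the members of any other library, where 0 of 486 Placebo 1 members allows up to 0.617% with a UMI. Ccr4 was found in 7 of 15 Il1rl1 cells and 1 of 18 Pdcd1 cells. Il7r, the IL-7 receptor, had 1043 and 338 CPM and Rora, a factor of ST2-bearing lymphocytes, 4357 and 1522 CPM. Among the genes with the largest ratios, Epas1, the gene of the hypoxia factor HIF-2 alpha, had 118 UMIs in 8 of 15 Il1rl1 cells (75 in 1 cell) and 3 in Pdcd1 cells. Pard3 had 85 UMIs in 5 cells (54 in 1 cell) and 0 in Pdcd1 cells. Nav2 was found in all 15 (149 UMIs) and in 4 of 18 (14 UMIs). Nebl, Acvr2a, Plcl1, Ern1, Ipmk, Rnf19b, Cobll1 and Mbd5 followed, with ratios of 8.47 down to 4.2.

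Ikzf2 and Ctla4 were higher in the Pdcd1 cells. Of 12 listed Th1 genes 3 were tested, and Il18r1 and Ccl5 were called, both lower in the Il1rl1 cells. Ikzf2 had no UMI in the 15 Il1rl1 cells and 220 in 11 of 18 Pdcd1 cells, and against the floor of 3 counts its log2 ratio was -5.92 or lower. Ctla4, the gene of an inhibitory receptor, had 96.0 CPM in Il1rl1 cells and 766 CPM in Pdcd1 cells (ratio 0.125; 0.0683 to 0.213). Ccl5 had 0 and 81 UMIs, and Ifng was found in 0 of 15 cells, which allows up to 20% with a UMI, and in 7 of 18. Tox, a factor of sustained receptor signalling, had 979 and 2785 CPM and Maf 96.0 and 238 CPM. Trps1 had 18 and 378 UMIs, Farp1 5 and 71, and Slc23a2 5 and 50 with 44 in 1 cell. Igf1r, Snx2, Phlpp1, Tmem65, Ms4a4b and Abtb2 had ratios of 0.127 to 0.210. Cd40lg was found in 9 of 15 and 9 of 18 cells, and Lef1 had 243 and 233 CPM, neither of which was called.

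**Figure D5:**
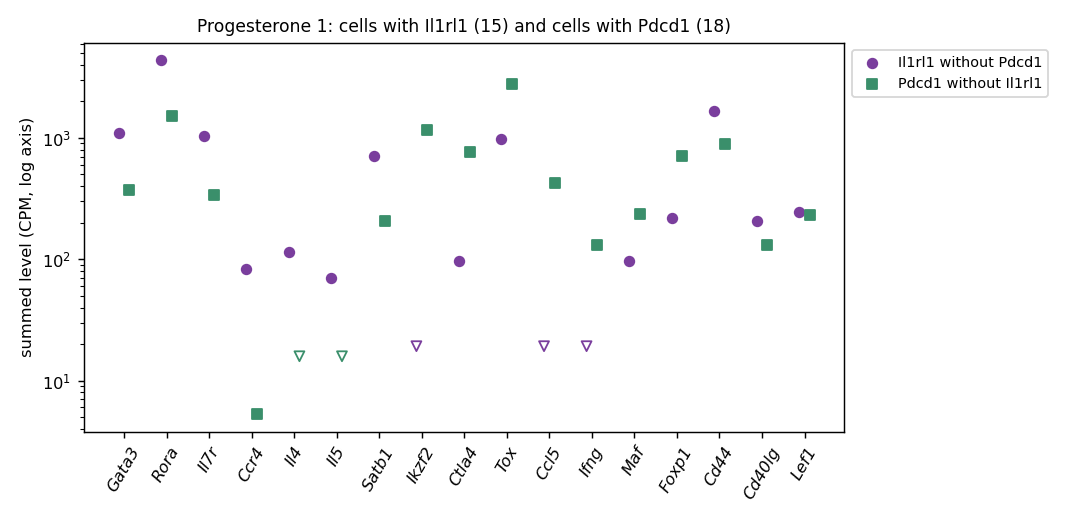
Summed level (CPM, log axis, y) of chosen genes (x) in Progesterone 1 members with Il1rl1 but no Pdcd1 (circles, 15 cells) and with Pdcd1 but no Il1rl1 (squares, 18 cells). Open triangles mark genes with no UMI, drawn at the level of 3 counts. Gata3, Rora and Il7r lie higher in the Il1rl1 cells, and Ikzf2 (0 against 1163 CPM) and Ctla4 (96.0 against 766 CPM) higher in the Pdcd1 cells.

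In batch 2 the members were few and higher in Ikzf2 than those of batch 1. Ikzf2 stood at 997 and 2295 CPM in Progesterone 2 and Progesterone 3 members and 2058 CPM in Placebo 2 members, against 332 and 141 CPM in Progesterone 1 and Placebo 1. Ctla4 stood at 1089, 892 and 1168 CPM in Progesterone 2, Progesterone 3 and Placebo 2, against 429 and 265 CPM in Progesterone 1 and Placebo 1. Epithelial markers were also higher in batch 2 members, 1551, 839 and 1197 CPM in Progesterone 2, Progesterone 3 and Placebo 2 against 92.2 and 9.64 CPM in Progesterone 1 and Placebo 1. The part of the batch in these levels was not tested.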

How the data were processed

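Tumour suspensions, for which the labels name no sort, went through 3' droplet libraries with UMIs. The deposited matrices hold raw UMI counts for each barcode, which the authors made with Cell Ranger 8.0.1 per the file headers. Version 7.0.0 and mm10 stand in the submitters' processing notes. They list 24860 symbols with no mitochondrial genes, so mitochondrial share was not used. No doublet caller was run. Library depths and the members' median depths stand in the report, and few members per library limit precision.

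Members were found by the stated rule. The members and the 31 gene lists (341 of 348 genes in the files) were chosen with earlier results of these data known. Intervals for shares are exact Clopper-Pearson and those for CPM ratios exact conditional binomial, both at 95%, and they cover counting error only. The limit for a count of 0 is 3 counts. Counts summed per library entered edgeR's quasi-likelihood test (version 4.0.16, R 4.3.3, robust, TMM, filterByExpr, prior count 2, Benjamini-Hochberg adjustment over all tested genes, threshold 0.05), over libraries with at least 10 cells of each population. DESeq2 1.42.0 was an alternative. An SE is the absolute log2 ratio over the root of the F statistic. The library was the block between cell populations, since both come from the same library, and batch was the term between treatments. The genes of the rule were left out of the tests. Named genes are the 12 largest and 12 smallest log2 ratios among called genes with at least 50 UMIs (ribosomal, Gm and Rik symbols counted, not named), and genes of the lists. Coordinates are those of GENCODE M21 on GRCm38. Results on a few genes are not reported here.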

Additional observations from a re-analysis of the deposited data

How the results depend on the processing

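The difference in the members' share of CD4 T cells in batch 1 moved only in the share of all T cells, to 10.8 percentage points. Genes called between Progesterone 1 and Placebo 1 numbered 542 of 2777 tested (232 higher, 310 lower) in cells chosen after thinning to 1500 UMIs with an activation sum of at least 1. They numbered 734 to 1235 under the other alternatives. Without the highest cell of each library for each gene, a setting chosen after seeing the data, 1029 were called (372 higher, 657 lower) and Il13, Robo1 and Zbtb16 were not. This setting kept the full totals and took 1 of 90 members in Progesterone 1 but 1 of 486 in Placebo 1. It thereby lowered the ratios by design, with a median log2 ratio of -0.14. The both-batch comparison gave 6 genes with DESeq2 size factors, 7 with the DESeq2 Wald test and 47 with no filter. With at least 5 members and each library left out in turn, also chosen after seeing the data, it gave 0 to 17 genes, 8 without Placebo 1. Against Foxp3+ cells the 20 genes became 9 with DESeq2 size factors, 224 with no filter, 89 with the DESeq2 Wald test, 41 at an activation sum of 5 and 0 without cells carrying B cell or macrophage markers. They became 18 to 96 with 1 library left out. The DESeq2 Wald test gave 86 genes against CD4 T cells with a sum of 0 and 85 against CD8 T cells. The first of these became 190 without marker-carrying cells, and the second 1 at a sum of 5. Without the replicate block, meaning the library, 0, 1 and 0 genes were called against Foxp3+, sum-of-0 and CD8 T cells, and without the batch term 0 were called between treatments. Cxcr3 between the libraries of batch 1 (log2 ratio -0.47) and Ifi27l2a against CD8 T cells (-0.033) turned direction at a sum of 5. The cause of these shifts was not tested. Not run for lack of libraries or residual degrees of freedom were the 20-cell minimum for the treatment and Foxp3+ comparisons, the planned treatment fits at a sum of 5, without marker-carrying cells and without 1 library, the CD8 fit without marker-carrying cells, and leaving out a library in both 2-library comparisons.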
